A study of Mus musculus with 4 samples.

Results

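The clathrin, dynamin and endocytic adaptor genes *Dnm1*, *Dnm2*, *Dnm1l*, *Clta*, *Cltb*, *Bin1*, *Itsn1*, *Itsn2*, *Picalm* and *Ap2a1* were examined in the E14.5 mouse cortex with and without the RNA-binding protein Quaking. They were taken by gene symbol, and all 10 were found among the 23038 genes of the expression files. Their alternative splicing events were found by gene identifier, which gave 73 of the 38240 events quantified. The libraries were made from poly-A mRNA of the cortex, 2 from controls and 2 from *Qk* cKO embryos. The control embryos were *Qk* fl/fl by the study's description and wild type by the sample labels, and the *Qk* cKO embryos were Nestin-Cre *Qk* fl/fl littermates. Nestin-Cre acts in neural precursors and so reaches the neurons and glia that descend from them, while blood vessels, blood and microglia of the dissected cortex keep the floxed alleles intact.

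In clathrin-mediated endocytosis, the AP2 complex and cargo adaptors gather receptors at the plasma membrane, clathrin triskelia of heavy and light chains assemble around the bud, and proteins with BAR domains bend the neck. Dynamin, a GTPase that polymerizes around the neck, then cuts the vesicle free. In the developing cortex this route takes up adhesion molecules and signalling receptors in progenitors, and in neurons it also recovers synaptic vesicle membrane. Many of these proteins exist in neuronal and non-neuronal forms that differ by short coding exons. *Dnm1l* is the exception in location, since its product divides mitochondria and peroxisomes.

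The exons that the comparisons turn on are shown first, each on the transcribed strand from 5′ to 3′, with positions in GRCm38 (mm10) and exon numbers from GENCODE M21. The longest is the 150-nt exon 13 of *Picalm*-201 at chr7:90182219-90182368 on the plus strand, which is coding, is present in 4 annotated transcripts and is skipped in 4. It lies between introns of 4615 and 6781 nt.
Picalm 150-nt exon: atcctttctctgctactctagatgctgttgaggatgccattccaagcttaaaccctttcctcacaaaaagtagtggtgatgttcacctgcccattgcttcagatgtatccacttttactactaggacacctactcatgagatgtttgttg

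The clathrin light chains each carry a coding exon of 54 nt (18 codons) that neurons are known to include. In *Clta* it is at chr4:44030215-44030268 on the plus strand, and in *Cltb* at chr13:54597026-54597079 on the minus strand. Aligned without gaps, they share 37 of 54 bases (68.5%), which stand in capitals.
Clta 54-nt exon: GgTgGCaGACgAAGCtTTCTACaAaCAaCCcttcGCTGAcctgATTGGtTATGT
Cltb 54-nt exon: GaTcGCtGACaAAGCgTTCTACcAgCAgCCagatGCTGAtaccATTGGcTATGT

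The dynamins *Dnm1* and *Dnm2* likewise share a 12-nt exon of 4 codons in the same place of the transcript, exon 14 in both. It lies at chr2:32323179-32323190 on the minus strand in *Dnm1* and at chr9:21490658-21490669 on the plus strand in *Dnm2*. Of its bases, 8 of 12 are identical (66.7%) and stand in capitals.
Dnm1 12-nt exon: GatGAGATtcTG
Dnm2 12-nt exon: GggGAGATctTG

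The remaining coding exons shown are those of *Itsn1* (chr16:91842628-91842642, plus strand), *Dnm1l* (chr16:16318445-16318477, minus strand) and *Ap2a1* (chr7:44903462-44903527, minus strand). The *Itsn1* exon adds 5 codons to the first SH3 domain in a neuronal form. A 21-nt exon of the clathrin heavy chain *Cltc* (chr11:86701061-86701081, minus strand), which is no member of the 10, is shown for a result given further on.
Itsn1 15-nt exon: gttaaaggggaatgg
Dnm1l 33-nt exon: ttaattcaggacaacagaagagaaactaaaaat
Ap2a1 66-nt exon: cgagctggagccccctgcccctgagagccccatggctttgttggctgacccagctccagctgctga
Cltc 21-nt exon: gttgatgcaataaaggaaaag

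Between 37942046 and 42994832 tags (estimated fragments, as Quantas assigns them to genes) were available per sample. The deleted exon was checked first: tags across the junction of *Qk* exons 2 and 3 numbered 635 and 565 in controls and 63 and 68 in *Qk* cKO, against 574 and 439 and then 898 and 830 across the junction of exons 3 and 4. The libraries did not separate cleanly by genotype. Over genes, the tags of control replicate 1 and *Qk* cKO replicate 1 differed less from each other (chi-square of 8.23 per gene) than either did from its own replicate (12.8 and 17.5). All 8 markers of pallial progenitors and all 7 markers of cortical neurons found in the files were at an RPKM of at least 1 in every sample. No gene of any marker list was called in the level test. The summed RPKM of the cortical neuron markers was 1111 to 1144 in controls and 1044 to 1096 in *Qk* cKO. That of 6 subpallial markers was 120.1 to 125.9 and 126.5 to 127.6, and that of 5 oligodendrocyte precursor markers 11.4 to 11.6 and 9.72 to 11.0. Single genes did not all follow these sums. Log2 fold changes were above 0 for 4 neuron markers and below 0 for 3. They were above 0 for 4 subpallial markers and below for 2, and for 1 and 4 oligodendrocyte precursor markers. The part of these differences in summed markers in the results below was not tested. The summed markers of pallial progenitors, blood, microglia, endothelium and meninges overlapped between the groups.

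All 10 genes were expressed in the E14.5 cortex, and none was called as different in level in *Qk* cKO. *Clta*, the clathrin light chain A, was the most abundant per length, and *Itsn2*, a multidomain scaffold that links the coat to actin regulators, was the least. Levels are RPKM (tags scaled by the gene's combined exon length and by the library total). With bulk RNA, fewer cells of a type and less RNA per cell cannot be told apart.

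For the coat itself, *Clta* was at 106.6 and 109.5 RPKM in controls and at 99.9 and 96.9 in *Qk* cKO. The *Qk* cKO samples were both below the controls, by a log2 fold change of -0.12 ± 0.05 (SE), which was not called (edgeR quasi-likelihood test, adjusted p = 0.477). *Cltb*, the light chain B, was at 13.9 and 12.3 RPKM in controls and 12.6 and 11.9 in *Qk* cKO, with overlapping groups. *Clta* was therefore 7.66 and 8.92 times as abundant per length as *Cltb* in controls and 7.92 and 8.13 times in *Qk* cKO. *Ap2a1*, a large subunit of AP2, was at 53.7 and 57.5 RPKM in controls and 51.6 and 55.4 in *Qk* cKO, and these groups overlapped too. *Picalm*, the adaptor that binds phosphoinositides and clathrin and sets the size of the coat, was at 34.3 and 33.7 RPKM in controls and at 35.3 and 38.1 in *Qk* cKO. Both *Qk* cKO samples were above both controls, and the log2 fold change of 0.12 ± 0.06 (SE) was not called (edgeR adjusted p = 0.629).

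For the scission machinery, *Dnm1*, the dynamin of neurons, was at 35.9 and 37.8 RPKM in controls and at 37.1 and 38.0 in *Qk* cKO. *Dnm2*, the dynamin found in all tissues, was at 35.2 and 35.5 RPKM in controls and 36.9 and 36.7 in *Qk* cKO. The 2 dynamins were thus at nearly equal levels per length in each sample, with *Dnm1* 1.005 to 1.065 times *Dnm2*. *Bin1* (amphiphysin 2), which bends membranes through its BAR domain and recruits dynamin, was at 59.0 and 61.4 RPKM in controls and at 58.2 and 57.3 in *Qk* cKO. Of the scaffolds, *Itsn1* was at 26.1 and 27.6 RPKM in controls and at 27.3 and 27.8 in *Qk* cKO. Its paralog *Itsn2* was at 4.80 and 5.39 RPKM in controls and 5.29 and 5.90 in *Qk* cKO. The groups overlapped for *Dnm1*, *Itsn1* and *Itsn2* but not for *Dnm2*, higher in *Qk* cKO, or *Bin1*, lower.

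*Dnm1l*, which encodes the mitochondrial fission GTPase, had the largest difference among the 10. It was at 39.13 and 39.02 RPKM in controls and at 41.3 and 45.6 in the *Qk* cKO samples, which were both above the controls. The log2 fold change of 0.17 ± 0.06 (SE) had an edgeR adjusted p of 0.350, so that it too was not called. It was not called in any of the alternatives that were run, where its lowest adjusted p was 0.231.

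**Figure D1:**
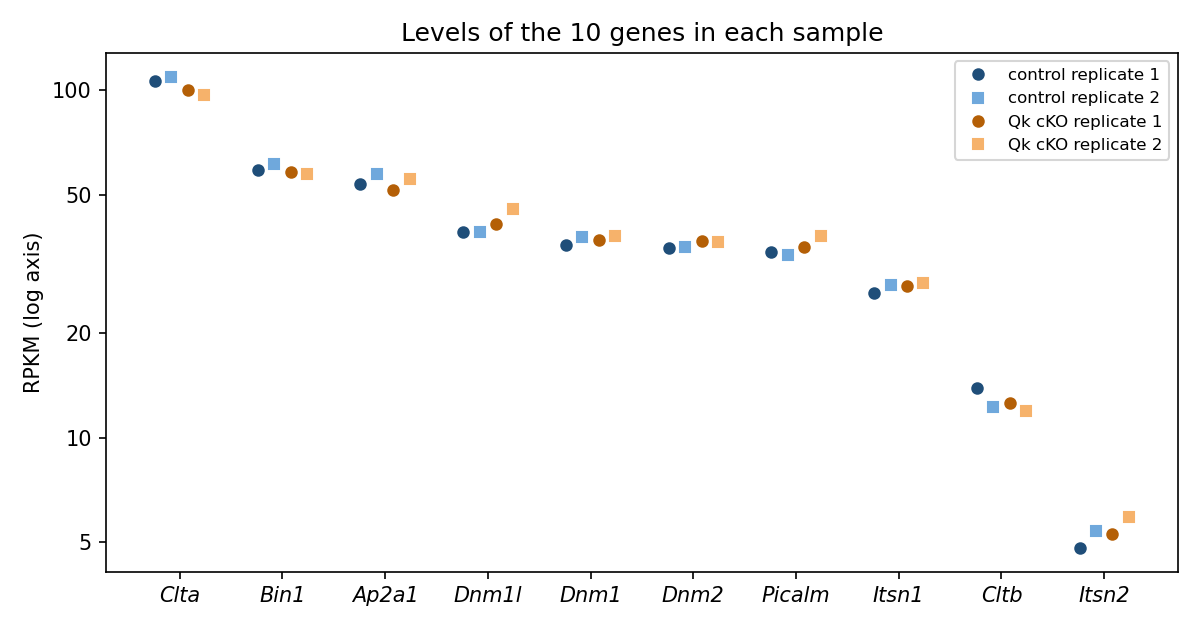
Level of each of the 10 genes (RPKM, log axis) in the 2 control and 2 *Qk* cKO samples, ordered by the mean of the 4 samples. The samples of a gene lie close together beside the differences between genes, from *Clta* at 96.9 to 109.5 RPKM down to *Itsn2* at 4.80 to 5.90.

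Ranked by mean RPKM over the 4 samples, the order was *Clta*, *Bin1*, *Ap2a1*, *Dnm1l*, *Dnm1*, *Dnm2*, *Picalm*, *Itsn1*, *Cltb* and *Itsn2*. The ranges of neighbours overlapped for *Bin1* and *Ap2a1*, for *Dnm1* and *Dnm2*, and for *Dnm2* and *Picalm*, and did not overlap for the other neighbours. These levels depend on the combined exon length of each gene, which ran from 1710 nt in *Clta* to 19654 nt in *Itsn1*.

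In the edgeR quasi-likelihood test over 18834 genes, 0 of the 10 were called (p below 0.01 and adjusted p below 0.1), where 0.584% of all genes tested were. Of the 10, 2 (*Dnm1l* and *Clta*) had an unadjusted p under 0.05, as did 8.76% of all genes. DESeq2 and edgeR's exact test also called 0 of the 10, beside 0.430% and 0.303% of all genes called. Each gave 1 of the 10 an unadjusted p under 0.05, for which no share over all genes was taken. The log2 fold changes ran from -0.12 (*Clta*) to 0.17 (*Dnm1l*), with a median of 0.05 beside -0.0025 over all genes tested. The RPKM of the groups did not overlap for 5 of the 10, beside 36.9% of all genes tested and 41.1% of those with an RPKM of at least 1 in every sample. For *Dnm1l*, the 95% interval of the log2 fold change (from its SE by a normal approximation) ran from 0.05 to 0.28, and for *Clta* from -0.22 to -0.02. Such intervals are narrower than the quasi-likelihood test implies. For no member did the interval reach beyond -0.26 or 0.34, the bounds for *Cltb* and *Itsn2*.

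**Figure D2:**
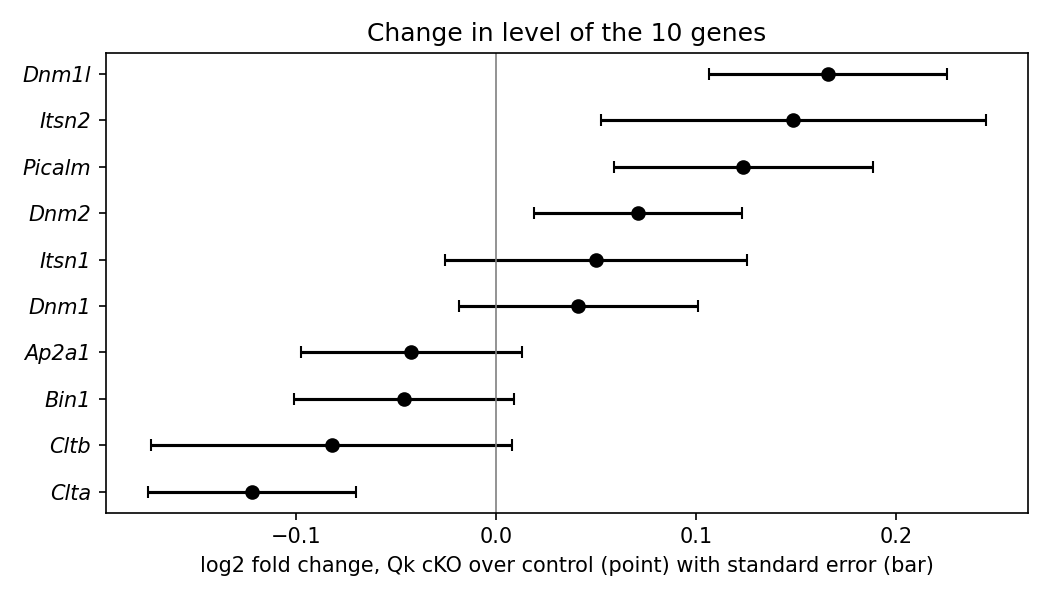
Log2 fold change of each gene in *Qk* cKO over control (point) with its standard error (bar), from the edgeR fit. All 10 points lie between -0.12 and 0.17, and none passed the threshold of the test.

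The splicing of the 10 genes was measured as inclusion, the share of junction tags that join the longer or included form, between 0 and 1. Of the 73 events, 43 had a coverage of at least 20 junction tags (the smallest row or column sum of the table of isoforms by group) and were tested, 22 of them cassette exons. The cassette exon of *Picalm* and that of *Cltb* were included more in *Qk* cKO, and no other event of the 10 genes was called. In total 2 of 43 events (4.65%) passed Fisher's exact test at p below 0.01 and adjusted p below 0.1, beside 7.50% of the 11500 events tested in all genes. Both were included more in *Qk* cKO, as were 3.97% of all events tested, while 0 of 43 were called as included less, beside 3.53% of all events. Both were among the 22 cassette exons, of which 9.28% were called over all genes. A call with a difference of at least 0.1 was made for 1 of the 43, beside 3.30% of all events. Fisher's test was run on tags summed over the 2 embryos of a group, so that its p-values hold counting error but not the spread between embryos. An edgeR interaction test, which does use that spread, called 1 of the 43, the *Picalm* exon, beside 0.557% of all events tested.

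The 150-nt exon of *Picalm* was included at 0.783 and 0.786 in the controls and at 0.911 and 0.899 in *Qk* cKO. The replicates of each genotype were within 0.02 of each other and the groups were well apart. Inclusion was higher in *Qk* cKO by 0.120, with a 95% interval of 0.0842 to 0.158 (Newcombe's method, counting error only). Fisher's exact test gave p = 3.11e-10 and an adjusted p of 3.18e-08 over cassette exons, and the edgeR interaction test an adjusted p of 0.0566. The call held when any 1 of the 4 samples was left out, with the difference between 0.114 and 0.127 in size.

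Each junction of the *Picalm* exon was seen separately. Tags joining the upstream exon to it numbered 314 and 292 in controls and 442 and 418 in *Qk* cKO. Tags joining it to the downstream exon numbered 213 and 237 in controls and 356 and 365 in *Qk* cKO. Tags skipping it numbered 73 and 72.1 in controls and 39 and 44.1 in *Qk* cKO. The inclusion junctions were thus higher and the skipping junction lower in both *Qk* cKO samples, where the total level of *Picalm* was not called as different. Taken from the upstream junction alone the difference in inclusion was 0.105, and from the downstream junction alone 0.141.

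**Figure D3:**
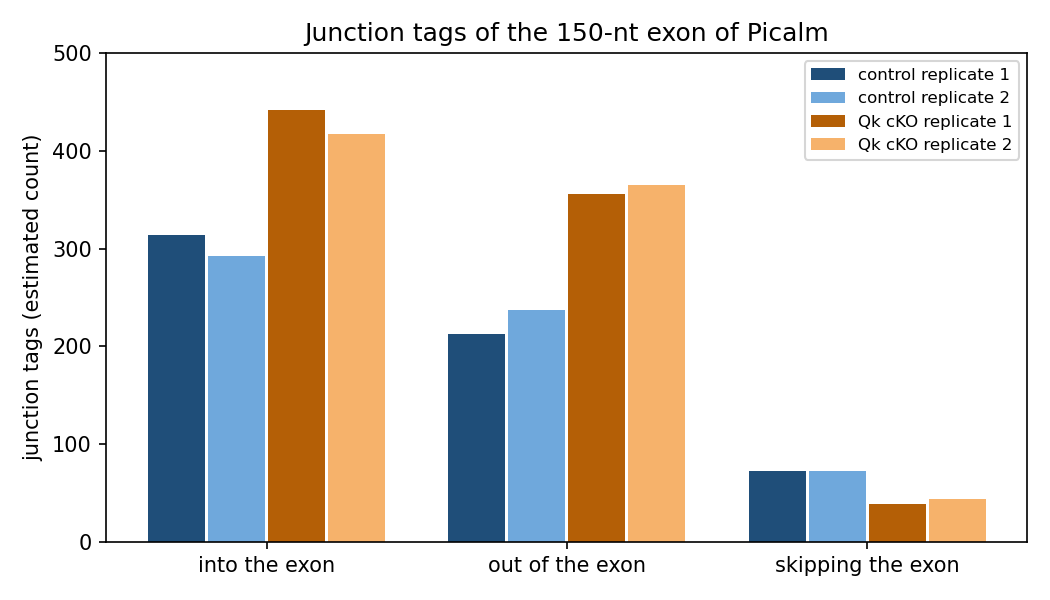
Junction tags (estimated counts, axis from 0) into, out of and skipping the 150-nt exon of *Picalm* in each of the 4 samples. Skipping tags were 73 and 72.1 in controls and 39 and 44.1 in *Qk* cKO, while the bars of both inclusion junctions are higher in *Qk* cKO.

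*Picalm* has other alternative sites, and these differed by less than the spread between samples. Its 24-nt exon (chr7:90194273-90194296), an insert of 8 codons nearer the end of the coding sequence, was included at 0.0416 and 0.050 in controls and at 0.0587 and 0.0218 in *Qk* cKO. An alternative 3′ splice site of the gene was used at 0.237 and 0.249 in controls and at 0.257 and 0.225 in *Qk* cKO. The groups overlapped in both, with differences of -0.0044 and -0.0028. The 150-nt exon was the sole called event of *Picalm*.

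The 54-nt exon of *Cltb* was included at 0.189 and 0.316 in controls and at 0.331 and 0.335 in *Qk* cKO. Control replicate 1 stood below the other 3 samples, and control replicate 2 was close to the *Qk* cKO samples. The pooled difference was 0.0902 (95% interval 0.0363 to 0.143, counting error only; Fisher's exact p = 0.00161, adjusted p = 0.0308). In the edgeR interaction test it was not called (adjusted p = 0.668). Without control replicate 1, the remaining control stood at 0.316 beside 0.333 for the *Qk* cKO pair and the call was lost (Fisher's exact p = 0.876). Without *Qk* cKO replicate 1 it was also lost, at an adjusted p of 0.123.

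The matching exon of *Clta* had the highest coverage of all tested events of the 10 genes, 3009 junction tags. It was included at 0.437 and 0.416 in controls and at 0.413 and 0.401 in *Qk* cKO, both just below the controls, and the difference of -0.0196 was not called (95% interval -0.0465 to 0.0073; Fisher's exact p = 0.0512, adjusted p = 0.282). Its sign was opposite to that of the *Cltb* exon, and the difference between the 2 exons was not tested. A second neuronal exon of *Clta*, of 36 nt (chr4:44031400-44031435), joins to the 54-nt exon. Among transcripts holding the 54-nt exon it was included at 0.0651 and 0.0531 in controls and at 0.0767 and 0.0820 in *Qk* cKO. That difference of 0.0197 was not called (Fisher's exact p = 0.162, adjusted p = 0.499).

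The 66-nt exon of *Ap2a1*, exon 16 of 22 codons, was included at 0.392 and 0.502 in controls and at 0.374 and 0.490 in *Qk* cKO. The samples with replicate number 1 were low and those with number 2 high in both genotypes, and the pooled difference was -0.0169 (95% interval -0.112 to 0.0798; Fisher's exact p = 0.928). The replicates of each genotype thus differed by more than the genotypes did.

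**Figure D4:**
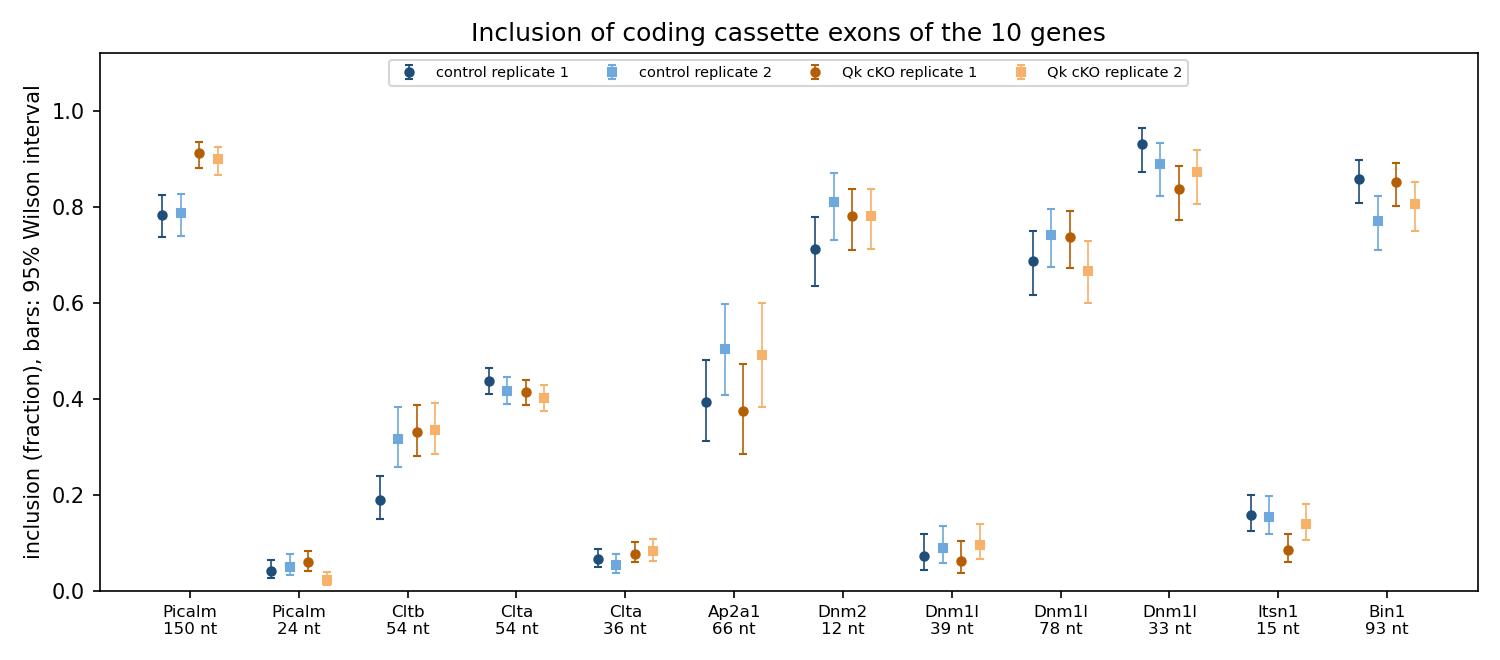
Inclusion (fraction of junction tags, 0 to 1) of 12 coding cassette exons of the 10 genes in each sample, with 95% Wilson intervals that cover counting error only. The *Picalm* 150-nt exon is the one whose intervals are apart between all controls (0.783 and 0.786) and all *Qk* cKO samples (0.911 and 0.899), and for *Cltb* control replicate 1 (0.189) lies below the other 3.

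The dynamins carry alternative exons in their middle and at their ends. The 12-nt exon of *Dnm2* was included at 0.712 and 0.810 in controls and at 0.780 and 0.781 in *Qk* cKO, with both *Qk* cKO samples between the controls (Fisher's exact p = 0.393). The event of *Dnm2* with the highest coverage, listed as mutually exclusive exons, had an inclusion of 0.241 and 0.270 in controls and 0.228 and 0.232 in *Qk* cKO (Fisher's exact p = 0.627). Its exons are the neighbouring exons 2 and 3 (exon 2 is in 8 annotated transcripts and skipped in 1, and exon 3 is in 9 and skipped in 0), so this value compares junction tags of 2 exons rather than a choice between them. The matching 12-nt exon of *Dnm1* was nearly always included and fell just short of the coverage needed for a test, with 5, 5, 1 and 6 skipping tags in the 4 samples beside 212, 168, 185 and 201 tags into the exon. The only event of *Dnm1* that was tested, a retained intron, was at 0.740 and 0.749 in controls and at 0.737 and 0.807 in *Qk* cKO (Fisher's exact p = 0.586). The other 10 of its 11 events had less coverage than the test required.

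*Dnm1l* had 9 tested events, and none was called. Its 33-nt exon, in the variable region between the middle domain and the GTPase effector domain, was included at 0.930 and 0.889 in controls and at 0.837 and 0.871 in *Qk* cKO. Both *Qk* cKO samples were below both controls, and the difference of -0.0574 (95% interval -0.110 to -0.0030) was not called (Fisher's exact p = 0.0325, adjusted p = 0.214). The neighbouring 78-nt exon was included at 0.686 and 0.740 in controls and at 0.736 and 0.667 in *Qk* cKO, so that the groups overlapped. The 39-nt exon in the GTPase domain was included at 0.0718 and 0.0890 in controls and at 0.0616 and 0.0954 in *Qk* cKO, when set against the common skipping junction. Against a rarer skipping junction with 4.7 to 12.1 tags per sample, the same exon gave 0.313 and 0.653 in controls and 0.441 and 0.726 in *Qk* cKO, and this difference of 0.135 was not called (Fisher's exact p = 0.528). In both measures the replicates with number 2 were the higher ones.

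Of the scaffolds and benders, *Itsn1* had the event nearest to a call. Its 15-nt exon was included at 0.158 and 0.154 in controls and at 0.0843 and 0.139 in *Qk* cKO. Both *Qk* cKO samples were below both controls, *Qk* cKO replicate 1 by far more than replicate 2. The difference of -0.0448 (95% interval -0.0812 to -0.0085) was not called (Fisher's exact p = 0.0353, adjusted p = 0.228; edgeR interaction test, adjusted p = 0.680). Fisher's exact test called it when only junction tags were used (p = 0.00139, adjusted p = 0.0235) and when *Qk* cKO replicate 2 was left out (p = 0.00461, adjusted p = 0.0680).

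*Itsn2*, at the lowest level of the 10, had 1 tested event, a retained intron with an inclusion of 0.176 and 0.139 in controls and 0.157 and 0.0759 in *Qk* cKO (Fisher's exact p = 0.585). *Bin1* had 12 tested events, several of which overlap because the gene's 3′ exons encode the clathrin and AP2 binding region and are used in many combinations. Its event with the highest coverage (738 junction tags), a pair listed as mutually exclusive, had an inclusion of 0.598 and 0.583 in controls and 0.582 and 0.665 in *Qk* cKO (Fisher's exact p = 0.308). Its exons, of 129 and 72 nt, were each included at 0.870 to 0.975 when measured as cassette exons, so this value too compares junction tags of 2 exons rather than a choice between them. The 93-nt exon 7 of *Bin1* in its BAR domain region was included at 0.858 and 0.771 in controls and at 0.852 and 0.805 in *Qk* cKO. Over the 12 events of *Bin1*, differences ran from -0.0551 to 0.0310, and 0 had an unadjusted p under 0.05.

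Most events of the 10 genes were thus close to equal between genotypes: 37 of 43 differed by less than 0.05 (86.0%), beside 70.7% of all events tested. The inclusion of the groups did not overlap for 16 of the 43, or 37.2%, beside 37.9% of all events. An unadjusted p under 0.05 was seen for 5 of 43 events, beside 16.8% of all events. The exons described here beyond those set by the naming rule, among them the 33-nt and 78-nt exons of *Dnm1l*, the 12-nt exons, the 24-nt exon of *Picalm*, the 36-nt exon of *Clta* and the 93-nt exon of *Bin1*, were added after their values had been seen.

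The cassette exons of the 10 genes were short and mostly kept the reading frame. The 22 tested cassette events fell on 19 distinct exons of 12 to 150 nt, with a median of 54 nt, beside a median of 94 nt over 4087 distinct tested exons of all genes. Of the 19, 16 (84.2%) were a multiple of 3 in length, beside 54.1% of all. The Quaking core motif, searched in these exons as ACTAAC or ACTAAT on the transcribed strand, was found in 1 of the 19, the 93-nt exon of *Bin1*, beside 2.57% of all distinct exons. On the opposite strand it was found in 0 of the 19 and in 1.81% of all. The *Picalm* and *Cltb* exons held no match, and the introns on either side were not searched.

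The wider machinery was read from 5 lists that hold 67 genes: clathrin heavy chain and AP2, coat pioneers and cargo adaptors, membrane bending and scission, uncoating, and mitochondrial dynamics. In level, 0 of the 67 were called by edgeR's quasi-likelihood test, beside 0.584% of all genes. An unadjusted p under 0.05 was seen for 2 of them, *Epn1* and *March5*, named after their values were seen. DESeq2 and edgeR's exact test also called 0 of the 67, with 0 at an unadjusted p under 0.05. The median log2 fold change was 0.02, with 36 genes above 0 and 31 below. Without *Qk* cKO replicate 1, the mitochondrial *Fis1* (log2 fold change -0.30, adjusted p = 0.0146) and the adaptor *Dab2* (0.41, adjusted p = 0.0612) were called, along with 2.30% of all genes tested in that fit.

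In splicing, 8 of 120 tested events (6.67%) in 44 of these genes were called by Fisher's exact test, beside 7.50% of all events. Of the 8, 7 were included more in *Qk* cKO, beside 456 of the 862 events called in all genes. A call with a difference of at least 0.1 was made for 5 of the 120, beside 3.30% of all events. By list, the calls were 1 of 5 events for clathrin and AP2, 5 of 48 for coat pioneers and cargo adaptors, 1 of 24 for bending and scission, 0 of 18 for uncoating and 1 of 25 for mitochondrial dynamics. The edgeR interaction test called 1 of the 120, in *Cltc*, beside 0.557% of all events tested.

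Among cargo adaptors, the 147-nt exon of *Numb*, an endocytic adaptor that restrains Notch, was included at 0.324 and 0.40 in controls and at 0.631 and 0.658 in *Qk* cKO (difference 0.287, adjusted p = 0.00582, Fisher's exact test). The 654-nt exon of *Dab2*, an adaptor for lipoprotein receptors, was included at 0.671 and 0.654 in controls and at 0.874 and 0.818 in *Qk* cKO (difference 0.180, adjusted p = 0.0947, Fisher's exact test). The 36-nt exon of *Epn2*, which bends membranes, was included at 0.130 and 0.193 in controls and at 0.314 and 0.223 in *Qk* cKO (difference 0.115, adjusted p = 0.0467, Fisher's exact test). The groups did not overlap in any of these 3, and in *Epn2* control replicate 2 and *Qk* cKO replicate 2 were close to each other. The 86-nt exon of the AP2-binding *Necap2* was included at 0.158 and 0.0400 in controls and at 0.319 and 0.259 in *Qk* cKO (difference 0.191, adjusted p = 0.0299, Fisher's exact test), on a coverage of 29.8 junction tags. Without *Qk* cKO replicate 1 the *Necap2* exon fell below the coverage required and could not be tested. *Numb* lost its call without control replicate 1 (p = 0.0155), *Epn2* without control replicate 1 (p = 0.165) or *Qk* cKO replicate 1 (p = 0.201), *Necap2* without control replicate 2 (p = 0.0907) or *Qk* cKO replicate 2 (p = 0.00898, with the adjusted p past its threshold), and *Dab2* without any 1 of the 4 samples (p of 0.0266 to 0.0477; all by Fisher's exact test).

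*Mff*, the outer membrane receptor that brings the *Dnm1l* product to mitochondria, had a 159-nt exon included at 0.458 and 0.424 in controls and at 0.564 and 0.567 in *Qk* cKO (difference 0.124, adjusted p = 0.0275, Fisher's exact test). Both *Qk* cKO samples were above both controls. The call was lost without control replicate 2 (Fisher's exact p = 0.0263) or *Qk* cKO replicate 2 (Fisher's exact p = 0.0111), and the edgeR interaction test gave an adjusted p of 0.523. *Mff* itself was at 99.2 and 90.8 RPKM in controls and 93.6 and 91.2 in *Qk* cKO.

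The remaining 3 called events differed by less than 0.1 and are named after their values were seen. The 21-nt exon of *Cltc*, exon 4 of *Cltc*-203, was included at 0.0681 and 0.0503 in controls and at 0.0090 and 0.0178 in *Qk* cKO. On the isoform tags of all 4 samples, it was the sole called event of these lists included less in *Qk* cKO. With junction tags only, another event of *Numb* and another of *Mff* were also called as included less, by 0.122 and 0.0579. A further event of *Mff* was then called as included more. Tags out of the *Cltc* exon numbered 39.3 and 31.3 in controls and 6.07 and 11.3 in *Qk* cKO. Skipping tags were 559 to 673 per sample. The difference was -0.0460 (95% interval -0.0616 to -0.0317; Fisher's exact p = 1.21e-13, adjusted p = 1.68e-11), and the edgeR interaction test called it as well (adjusted p = 0.0595). The level of *Cltc* was 61.7 and 67.0 RPKM in controls and 64.3 and 67.5 in *Qk* cKO. A tandem exon event of *Fnbp1l*, an F-BAR protein, was included more in *Qk* cKO by 0.0146 (adjusted p = 0.00131, Fisher's exact test), and an alternative 3′ splice site of *Arrb2*, a beta-arrestin, by 0.0782 (adjusted p = 0.0673, Fisher's exact test). The *Arrb2* call was lost without control replicate 1 or either *Qk* cKO sample, while those of *Cltc* and *Fnbp1l* held with any 1 sample left out.

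**Figure D5:**
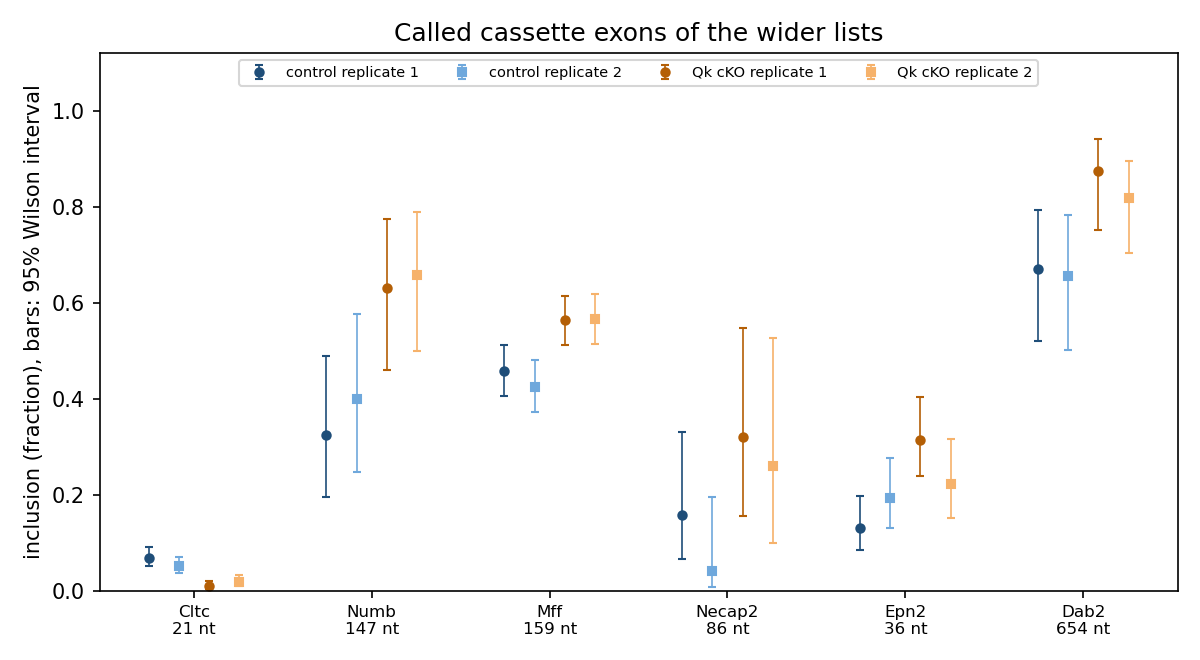
Inclusion (fraction of junction tags, 0 to 1) of the 6 called cassette exons of the wider lists in each sample, with 95% Wilson intervals for counting error only. In 5 genes both *Qk* cKO samples lie above both controls, and in *Cltc* they lie below, at 0.0090 and 0.0178 beside 0.0681 and 0.0503.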

How the data were processed

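Deposited files of 4 samples were used, 2 per genotype. The study's methods name 3 replicates and the labels 2, and 2 were used here. Reads were aligned to mm10 with OLego and quantified with Quantas by the authors, who deposited an estimated count of tags and an RPKM value per gene, and estimated counts of tags per isoform and junction for 6 types of splicing event. Here tags were rounded. Genes with at least 1 tag were fitted with edgeR 4.0.16 (TMM scaling, quasi-likelihood test) in R 4.3.3, with Benjamini-Hochberg adjustment over all genes. DESeq2 1.42.0 was an alternative. Inclusion was taken from junction tags, with each junction given equal weight, and isoform tags summed per genotype were compared with two-sided Fisher's exact tests (SciPy 1.17.1), adjusted within each event type. Exons were placed by the lengths of exon and introns in GENCODE M21. The study describes 2 independent samples per genotype, with control and *Qk* cKO embryos as littermates, and the labels give replicate numbers only. Tags carry no molecular identifiers. The intervals of inclusion were computed from tags as independent counts, without a term for the spread between embryos, so they cover counting error only. Those of log2 fold changes come from the SE of the edgeR fit by a normal approximation. They hold the spread between samples but are narrower than the quasi-likelihood test implies.

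The 10 genes and all lists were chosen with earlier results of these data known. By rule, all 10 genes were named, with every called event, every tested event that differed by at least 0.1 and otherwise the event of highest coverage. Overlapping events of 1 exon were described by the highest coverage. Of the wider lists, genes called in level or with a called event of at least 0.1 were named. The motif was searched in exons only, and the flanking introns were not analysed here. *Mief1* and *Mief2* were tested under their older symbols *Smcr7l* and *Smcr7*, and *Map2*, *Hbb-bt* and *Hbb-bs* had no row under these symbols and were not used here. The scripts were tested on simulated data.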

Additional observations from a re-analysis of the deposited data

How the results depend on the processing

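Of the 10 genes, 0 were called in level under any of the 9 alternatives, which were edgeR's exact test, DESeq2, upper-quartile scaling, a filter on low counts, the replicate block and each sample left out. The total of calls over all genes moved more, from 110 to 57 (exact test), 11 (filter), 192 (replicate block), and, without *Qk* cKO replicate 1, *Qk* cKO replicate 2, control replicate 1 and control replicate 2, to 428, 68, 11 and 0. For the wider lists, calls in level were 0 throughout, except for 2 without *Qk* cKO replicate 1 (range with 1 sample left out 0 to 2). Of the events of the 10 genes, 2 were called, 1 by the edgeR interaction test, 1 with a difference of at least 0.1, and 1 to 3 with 1 sample left out (1 without control replicate 1 or *Qk* cKO replicate 1). The *Picalm* exon was called in all of these, and *Cltb* lost its call where stated above. Of the wider lists' events, 8 were called, 1 by the interaction test, 5 with a difference of at least 0.1, and 4 to 6 with 1 sample left out. Calls over all events were 862 of 11500 tested, and 64 by the interaction test. With any 1 sample left out, fewer events were tested over all genes and fewer were called.

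Signs turned, with 1 sample left out, only for differences that were not called. The log2 fold change of *Cltb* ran from -0.17 to 0.01 (0.014 without control replicate 1) and that of *Ap2a1* from -0.089 to 0.0027 (without control replicate 2). Inclusion, taken as control less *Qk* cKO, ran from -0.0619 to 0.0080 for the *Dnm1* intron, -0.0748 to 0.0087 for the *Bin1* pair, -0.00048 to 0.0808 for the *Itsn2* intron and -0.0482 to 0.0770 for the *Ap2a1* exon (-0.0333 without control replicate 2). For the *Dnm1l* 39-nt exon against its rarer skipping junction it was -0.135, and 0.017 from the upstream junction alone. *Dab2* was not called with a coverage of at least 10 or with adjustment over all event types. The cause was not tested.

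With the replicate number as a block, 2 events of the 10 genes and 9 of the wider lists were called, and 0 genes in level. Over all genes, 903 of the 11500 events tested were called with that block. Deviations of same-numbered samples from their group means correlated at 0.38 over genes, -0.07 over autosomal genes and 0.01 over events. The correlation over all genes was thus not seen among autosomal genes, and its source was not tested. The labels give the 2 pairs a shared number and nothing more. With 2 samples per genotype and the coverage required, 30 of the 73 events could not be tested.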

Other observations

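Among the 30 untested events, the 81-nt exon of *Itsn2* came nearest to the required coverage, at 19.0 junction tags. It had 1, 1, 3 and 5 tags into the exon, 2, 3, 6 and 12 tags out of it and 8, 4, 6 and 25 skipping tags in control replicates 1 and 2 and *Qk* cKO replicates 1 and 2. Events that skip the 74-nt exon of *Dnm2* had 1, 0, 3 and 6.1 skipping tags in the same order, beside 61 to 66 tags into the exon. Skipping of a 168-nt exon of *Itsn1* was seen at 1, 0, 2 and 3 tags. These values carry no test.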
